A study of Mus musculus with 15 samples.

Results

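Prdm1, Xbp1, Sdc1, Ell2, Creb3l2 and Bcl6 are tied to an activated B cell's choice between germinal centre cell and antibody-secreting plasma cell. Ung and Apex1 encode DNA repair enzymes that act when antibody genes are mutated and switched. All of these genes were taken by name, with every probe set annotated to them. That gave 8 of the 18193 genes on the array and 19 of the 34945 probe sets with 1 gene symbol. All 8 genes and 17 of the 19 probe sets were bright enough to be tested.

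The study measured RNA of AM-14 B cells on 15 Affymetrix mouse arrays, 1 array per sample, in 5 groups of 3. AM-14 mice carry a transgenic B cell receptor that binds IgG of the mouse itself, so every group, the control included, came from cells with that receptor. The comparison asks how signals through the antigen receptor, through Toll-like receptor 9, and through both together change the cells. The control group was kept in media alone. The anti-IgM group received F(ab')2 fragments of goat anti-mouse IgM, which cross-link the antigen receptor. The CpG group received the phosphorothioate oligodeoxynucleotide 1826, a ligand of Toll-like receptor 9. The PL2-3 group received the antibody PL2-3 as a chromatin immune complex, which AM-14 cells can bind with the antigen receptor and carry to Toll-like receptor 9. The fifth group received anti-IgM together with CpG according to its titles and descriptions, although its treatment field reads "none". The sources used here give no age of the mice, dose or time. The labels also do not say whether replicates came from separate mice or cultures, so p-values measure only the spread between these arrays.

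BLIMP-1, the product of Prdm1, shuts down the B cell programme and starts antibody secretion. XBP1, made in its active form by unconventional splicing of its RNA, expands the endoplasmic reticulum of secreting cells. BCL6 represses Prdm1 and holds cells in the germinal centre, where antibody genes are mutated and switched through uracils that the glycosylase UNG removes and the endonuclease APE1, the product of Apex1, cuts. ELL2 directs processing of immunoglobulin heavy-chain RNA to the secreted form, CREB3L2 is a membrane-bound transcription factor of the secretory pathway, and syndecan-1, the product of Sdc1, is the surface marker CD138 of plasma cells.

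Some arrays stood apart from the rest before any gene was compared. The 3 arrays with both anti-IgM and CpG had an Xist signal of 321 to 589 units, against 4252 to 15543 on the 12 others. Their ratio of the 5' to the 3' probe set of beta-actin, a measure of RNA and labelling quality, was 0.105 to 0.193. That range was like the 0.108 to 0.201 of the 4 Ambion-labelled arrays of the other groups and unlike the 0.335 to 0.747 of the 8 Enzo-labelled ones, although the labels give Enzo for replicates 1 and 2 of every group. Median signals ran from 263 to 514 units per array. Defining markers of B cells were bright in every group, with 7 marker genes that summed to between 134394 and 466055 units per array. The B cell sum was 297991 units on media replicate 3 and 340546 and 466055 on media replicates 1 and 2. Sums over 14 myeloid and 5 erythroid marker genes were highest on media replicate 3, at 326399 and 171165 units. On media replicates 1 and 2 they were 198166 and 199787 for myeloid and 101719 and 98861 for erythroid genes. The sum of 10 T cell genes was also highest on media replicate 3, at 16854 units. The sum of 8 NK cell genes was 9269 units there and 11531 and 11172 on media replicates 1 and 2. No marker gene of these lists was below 75.2 units on all 15 arrays. In a bulk sample, fewer cells of a type and less RNA per cell cannot be told apart.

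Media replicate 3 and anti-IgM+CpG replicate 1 were also the brightest 2 of the 15 arrays for Xbp1 and Sdc1. Because every comparison with media uses the former, and every comparison with the combination the latter, results that rest on them are given with and without them below. How the origin of these 2 arrays bears on the results was not tested. The low Xist signal was on all 3 arrays of the combination and on no other. A difference in their origin therefore cannot be told apart from the effect of the 2 agents together. This limit holds for every value of the combined group below, non-additivity included.

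Signals are MAS5 values on a linear scale, given for the brightest probe set of each gene. Changes are differences of log2(signal + 75.2), estimated with limma in 1 model of the 5 groups and the labelling kit over all 15 arrays, and are given ± SE. A gene was called at a Benjamini-Hochberg adjusted p under 0.05 over all 13160 genes tested. A fold is on the scale with that addition and understates changes of dim genes.

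Ung and Apex1, which act in sequence on uracil in DNA, were the members that were higher after stimulation. Ung rose with all 4 stimuli and Apex1 with 3 of them. Bcl6 was called lower with the 3 stimuli that engage the antigen receptor but not with CpG alone, and differed between CpG and anti-IgM. Of the 3 falls, only that with anti-IgM kept its call in every alternative, and the other calls were each lost in 3. On the second Bcl6 probe set only the combined group was called lower than media, and CpG against anti-IgM was not called. None of the 5 genes of the plasma cell side was called higher with any stimulus.

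Promoter sequence is shown for Ung and Apex1, which were called in the same direction, for Bcl6, which was called in the other, and for Ell2, which was not called. RefSeq, assembly GRCm38.p6, gave a window from 250 bases before to 50 bases after the start for all 8 genes, with 2 starts for Bcl6 and 9 windows in all. Both strands were searched, and the motif is in capitals. Apex1 had 3 copies of the E box CACGTG, at bases -24, 1 and 22 from its start. An E box was found in 7.15% of 32851 such windows and 3 or more in 0.0883%. The 55 bases between the end of the neighbouring gene Osgep and the start of Apex1, chr14:50924894-50924948 on the plus strand, hold the first of them.
Apex1: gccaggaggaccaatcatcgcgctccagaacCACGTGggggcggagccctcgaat

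Ung had no E box in its window and 2 GC boxes, GGGCGG, 1 on each strand. A GC box was present in 35.7% of all windows. Among the other members, Sdc1 and Ell2 had 3 GC boxes each, the outer Bcl6 window 2, and Creb3l2 and Apex1 1 each. The outer Bcl6 window also held 1 E box, the only one outside Apex1. Each GC box of Ung is shown with 10 bases on either side, at chr5:114130338-114130363 and chr5:114130405-114130430, plus strand.
Ung, first GC box: acccacccggGGGCGGggcctcagcc
Ung, second GC box: gccagcctccCCGCCCccaacgggag

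The window at the inner start of Bcl6 held 3 copies of TTCNNNGAA, the palindrome bound by STAT factors, and this motif is shown for that reason. That motif occurred in 8.3% of windows, and 3 or more copies in 0.0335%. The copies lie on the minus strand at chr16:23981433-23981461, chr16:23981387-23981415 and chr16:23981353-23981381, each with 10 flanking bases. The window at the outer start, of which chr16:23988867-23989102 on the minus strand lies before the gene, held 1 copy.
Bcl6, inner start, site at -168: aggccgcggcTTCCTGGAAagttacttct
Bcl6, inner start, site at -122: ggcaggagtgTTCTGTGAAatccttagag
Bcl6, inner start, site at -88: atcgactacgTTCCGGGAAtgagagggct
Bcl6, outer start: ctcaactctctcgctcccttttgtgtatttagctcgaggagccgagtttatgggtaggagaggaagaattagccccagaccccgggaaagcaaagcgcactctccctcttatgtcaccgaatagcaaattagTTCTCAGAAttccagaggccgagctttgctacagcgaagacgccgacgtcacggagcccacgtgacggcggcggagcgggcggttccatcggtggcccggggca

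Ell2 was the only member with a cyclic AMP response element, TGACGTCA, which 1.79% of windows held. It lay at chr13:75707276-75707303 on the plus strand, flanks included. None of the 9 windows held the unfolded protein response element TGACGTGG, found in 0.676% of all windows. CCAAT boxes, in 37.4% of all windows, numbered 3 in Ell2, 2 each in Creb3l2 and Apex1, 1 each in Prdm1 and Sdc1 and 0 in the other windows. These are matches of letters and not measured binding sites. Several motifs were searched in each window and only some matches are shown, so the shares of all windows are descriptions and not tests.
Ell2, cyclic AMP response element: agacgagacaTGACGTCAgataagatta

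Ung (chr5:114130366-114139321, GRCm38.p6) encodes the glycosylase that starts repair of uracil left by cytosine deamination. Its 1 probe set, 1425753_a_at, gave 3421, 2533 and 2183 units on the media arrays. It gave 6797, 5887 and 6433 with anti-IgM, and 5452, 4656 and 6022 with CpG. It gave 7238, 6895 and 6245 with PL2-3, and 6247, 8889 and 6227 with anti-IgM and CpG together. All 12 stimulated arrays lay above all 3 media arrays. Stimulated groups next to each other in order of their means overlapped. All CpG arrays, however, lay below all arrays with PL2-3 and all arrays with both agents.

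The rise of Ung was 1.23 ± 0.18 with anti-IgM (2.35-fold, limma adjusted p = 0.000289). It was 0.98 ± 0.18 with CpG (1.98-fold, adjusted p = 0.000769), 1.32 ± 0.18 with PL2-3 (2.5-fold, adjusted p = 8.93e-05) and 1.37 ± 0.18 with both agents (2.59-fold, adjusted p = 2.63e-05). Every alternative processing kept the 4 calls, with values from 0.76 to 2.08. No pair of stimuli differed in Ung at the threshold. Set against the sum of the single-agent changes, the combined change of Ung differed by −0.84 ± 0.26 (adjusted p = 0.0958), which did not pass.

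Apex1 (chr14:50924949-50927188) encodes the main enzyme that cuts DNA at abasic sites. Its brightest probe set, 1437715_x_at, gave 34415, 22297 and 27651 units in media and 48589, 22951 and 54505 with anti-IgM. With CpG it gave 57554, 56564 and 59147, with PL2-3 49732, 36044 and 59174, and with both agents 67206, 56655 and 59497. The CpG, PL2-3 and combined groups lay wholly above media. The anti-IgM group overlapped media through replicate 2, which was as low as the media arrays.

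Apex1 rose by 1.06 ± 0.25 with CpG (2.08-fold, limma adjusted p = 0.00464), by 0.77 ± 0.25 with PL2-3 (1.71-fold, adjusted p = 0.0327) and by 1.14 ± 0.25 with both agents (2.2-fold, adjusted p = 0.00192). With anti-IgM the value was 0.51 ± 0.25 (adjusted p = 0.185), and it became 0.87 with an adjusted p of 0.00906 without anti-IgM replicate 2. The PL2-3 call was lost in 9 alternatives. These included the fits without media replicate 2 (0.65, adjusted p = 0.119), without media replicate 3 (0.67, 0.125), without PL2-3 replicate 1 (0.69, 0.115) and without PL2-3 replicate 3 (0.67, 0.13). On 1416135_at, the only Apex1 probe set without the x suffix that marks probes shared with other transcripts, the gene rose in all 4 groups. Its values were 0.94 ± 0.21 with anti-IgM (adjusted p = 0.00625), 1.19 ± 0.21 with CpG, 1.12 ± 0.21 with PL2-3 and 1.57 ± 0.21 with both. Its signals were 11747, 13181 and 8490 units in media and 16419 to 34346 units on the 12 stimulated arrays, with no overlap.

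**Figure D1:**
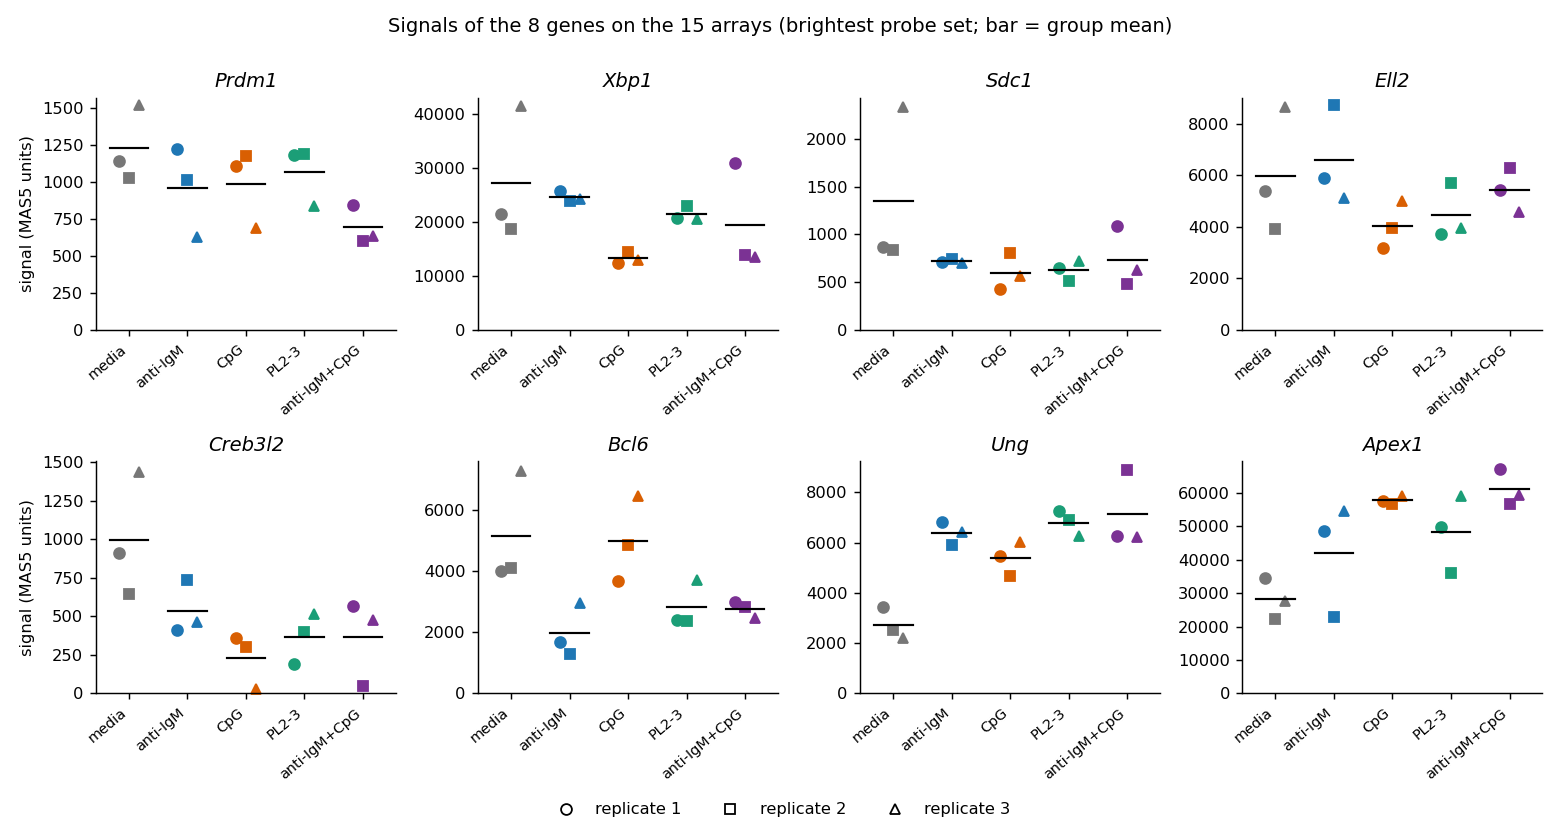
Signal of the brightest probe set of each gene on a linear axis, in MAS5 units, by group; markers give the replicate and bars the mean of 3 arrays. Ung lies at 2183 to 3421 units in media and at 4656 to 8889 on the 12 stimulated arrays, and media replicate 3 is the highest media array for 6 of the 8 genes.

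Bcl6 (chr16:23965050-23988866) encodes the repressor that keeps cells in the germinal centre and blocks Prdm1. Its brightest probe set, 1421818_at, gave 3997, 4112 and 7287 units in media and 1692, 1298 and 2955 with anti-IgM. It gave 3669, 4840 and 6466 with CpG, 2394, 2360 and 3703 with PL2-3, and 3001, 2809 and 2477 with both agents. The groups with anti-IgM, PL2-3 and both agents lay wholly below media. The CpG arrays covered nearly the same range as media.

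Bcl6 fell by 1.36 ± 0.22 on the log2 scale with anti-IgM (2.58-fold, limma adjusted p = 0.000479), a call that every alternative kept at −1.53 to −0.98. The change with CpG was −0.02 ± 0.22 (adjusted p = 0.958). The direct difference of CpG from anti-IgM was 1.34 ± 0.22 (2.54-fold higher with CpG, adjusted p = 0.000886), and it too kept its call in every alternative, at 1.11 to 1.51; on the second probe set, 1450381_a_at, it was 0.88 ± 0.28 (adjusted p = 0.0988), not called. Bcl6 fell by 0.82 ± 0.22 with PL2-3 (adjusted p = 0.0107) and by 0.82 ± 0.22 with both agents (adjusted p = 0.00674). The PL2-3 call was lost without media replicate 3 (−0.71, adjusted p = 0.0598), without the labelling term (adjusted p = 0.0748), and with arrays shifted to a common median (−0.6, adjusted p = 0.183). The call with both agents was lost with the common median (−0.12, adjusted p = 0.794), on Enzo arrays alone (−0.47, adjusted p = 0.104) and without the labelling term (adjusted p = 0.0511). It was −0.5 (adjusted p = 0.0413) without anti-IgM+CpG replicate 3 and −1.33 when the combined arrays were given the kit that their actin ratio resembles.

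Bcl6 was lower with both agents than with CpG alone, at −0.80 ± 0.22 (adjusted p = 0.0474), a value just inside the threshold that 20 alternatives moved outside it. The difference between PL2-3 and CpG had the same size, −0.80 ± 0.22 (adjusted p = 0.0615), just outside it. Same-numbered arrays of the 4 groups other than the combination were correlated, and replicate number goes with the labelling kit there. With replicate number as a block and without the combined arrays, the difference of PL2-3 from CpG in Bcl6 passed at an adjusted p of 0.00932. With the replicate block over all arrays, the difference of the combination from CpG in Bcl6 did not pass (adjusted p = 0.0565). On the second, dimmer probe set of Bcl6 the difference of the combination from CpG was −1.6 ± 0.28 (adjusted p = 0.00419), and that of PL2-3 from CpG −0.76 ± 0.28 (adjusted p = 0.252). Against media it gave −0.59 ± 0.28 with anti-IgM (adjusted p = 0.188), 0.3 ± 0.28 with CpG, −0.46 ± 0.28 with PL2-3 and −1.3 ± 0.28 with both (adjusted p = 0.0018).

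**Figure D2:**
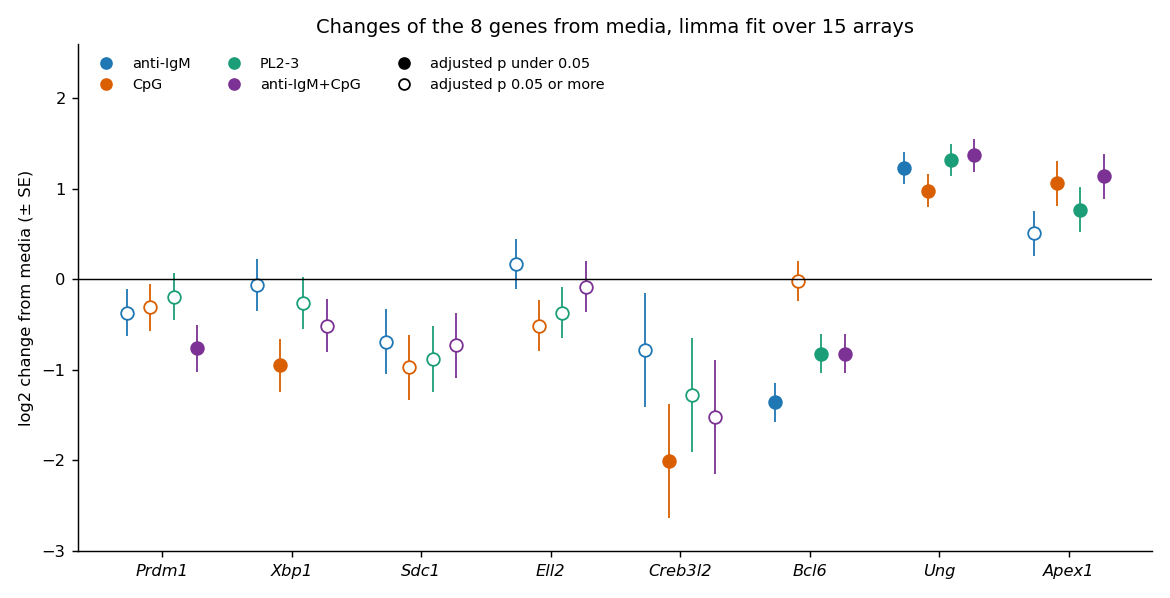
Change of each gene from media in log2 units with its SE from the limma fit over 15 arrays, coloured by stimulus; filled points had an adjusted p under 0.05. Ung is filled for all 4 stimuli, from 0.98 to 1.37, and Bcl6 is at −1.36 with anti-IgM and −0.02 with CpG; shifting arrays to a common median moved Bcl6 with both agents to −0.12 and Prdm1 to −0.1.

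Prdm1 (chr10:44437174-44528558) encodes BLIMP-1, the repressor that ends the B cell programme. Its 1 probe set, 1420425_at, gave 1140, 1028 and 1522 units in media, 1224, 1012 and 629 with anti-IgM, and 1105, 1172 and 685 with CpG. It gave 1182, 1186 and 836 with PL2-3, and 846, 599 and 631 with both agents. Only the combined group lay wholly below media. In the 3 groups with a single agent, the Ambion-labelled replicate 3 was the lowest array, whereas in media it was the highest.

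Prdm1 fell by 0.76 ± 0.26 with both agents (1.7-fold, limma adjusted p = 0.0274), and this call rested on the settings. It was lost without media replicate 3 (−0.44, adjusted p = 0.2) and without anti-IgM+CpG replicate 2 (−0.62, adjusted p = 0.114). It was also lost with the kit taken from the actin ratio (−0.52, adjusted p = 0.179), with quantile normalization (−0.16, adjusted p = 0.655) and with the common median (−0.1, adjusted p = 0.795). The values with anti-IgM, CpG and PL2-3 were −0.37 ± 0.26, −0.31 ± 0.26 and −0.19 ± 0.26, with adjusted p of 0.366, 0.394 and 0.661. The range over alternatives of these uncalled values included both signs.

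Xbp1 (chr11:5520641-5525993) encodes the transcription factor that builds the secretory apparatus. Its brightest probe set, 1437223_s_at, gave 21473, 18682 and 41588 units in media and 25651, 23916 and 24209 with anti-IgM. It gave 12406, 14352 and 12872 with CpG and 20674, 22900 and 20561 with PL2-3. With both agents it gave 30860, 13823 and 13467. The CpG arrays lay below every media, anti-IgM and PL2-3 array. The combined arrays were split, with replicates 2 and 3 near the CpG arrays and replicate 1 above all anti-IgM and PL2-3 arrays.

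Xbp1 fell by 0.95 ± 0.29 with CpG (1.93-fold, limma adjusted p = 0.0207). The call was lost in 6 alternatives. Among them were the common median, Enzo arrays alone and the brightest probe set without an x or s suffix. Without media replicate 3 the change was −0.54 and was not called (adjusted p = 0.163). It was −0.58 (adjusted p = 0.004) without both that array and anti-IgM+CpG replicate 1, an alternative chosen after their values were seen. The call was also lost without CpG replicate 1 (−0.91, adjusted p = 0.0658) or CpG replicate 3 (−0.91, adjusted p = 0.0741). Of the other 3 probe sets of Xbp1, 1420011_s_at at −0.71 ± 0.24 (adjusted p = 0.0414) and 1420012_at at −1 ± 0.28 (adjusted p = 0.0142) fell with CpG. The value of 1420886_a_at was −0.57 ± 0.28 (adjusted p = 0.149). These probe sets measure total Xbp1 RNA as far as the sources used here tell, not its spliced share.

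The change of Xbp1 with both agents was −0.51 ± 0.29 (adjusted p = 0.17), and it was −0.93 (adjusted p = 0.00411) without replicate 1 of that group. With all arrays kept, 1420011_s_at (−0.81 ± 0.24, adjusted p = 0.0142) and 1420012_at (−1.06 ± 0.28, adjusted p = 0.00664) fell with both agents, and 1420886_a_at was −0.38 ± 0.28 (adjusted p = 0.294). On the brightest probe set the change with anti-IgM was −0.06 ± 0.29 and that with PL2-3 −0.26 ± 0.29, neither called. CpG differed from anti-IgM by −0.89 ± 0.29 in Xbp1 (adjusted p = 0.0855). That difference passed with the replicate block and without the combined arrays (adjusted p = 0.0137), without media replicate 3 (adjusted p = 0.0234) and without anti-IgM+CpG replicate 1 (adjusted p = 0.0106).

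Sdc1 (chr12:8771396-8793716) encodes syndecan-1, a heparan sulphate proteoglycan of the plasma cell surface. Its brightest probe set, 1415943_at, gave 872, 842 and 2342 units in media, 714, 742 and 704 with anti-IgM, and 423, 801 and 564 with CpG. It gave 650, 514 and 722 with PL2-3, and 1093, 483 and 625 with both agents. All arrays with anti-IgM, CpG or PL2-3 lay below all media arrays, and the combined group overlapped media through its replicate 1.

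None of the 4 changes of Sdc1 from media was called. They were −0.69 ± 0.36 with anti-IgM (limma adjusted p = 0.205), −0.97 ± 0.36 with CpG (0.0506), −0.88 ± 0.36 with PL2-3 (0.0845) and −0.73 ± 0.36 with both (0.111). With the replicate block and without the combined arrays, the CpG value of Sdc1 passed at an adjusted p of 0.0341. It passed in 12 of 32 alternatives, among them the actin-based kit (adjusted p = 0.0381), the mean of probe sets (−1.1, adjusted p = 0.038) and the fits without any 1 of media replicates 1 and 2, CpG replicate 2 and the 3 combined arrays (adjusted p = 0.0271 to 0.0495). It was −0.51 (adjusted p = 0.332) without media replicate 3, and −0.55 (adjusted p = 0.208) without that array and anti-IgM+CpG replicate 1. On the dimmer 1437279_x_at, Sdc1 fell with CpG (−1.93 ± 0.40, adjusted p = 0.00217) and with both agents (−1.45 ± 0.40, adjusted p = 0.00934). That probe set gave 992, 686 and 2797 units in media. The third, 1415944_at, gave no call, and 1448158_at was under the array median on all 15 arrays, at 38 to 236 units, and was not tested.

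Ell2 (chr13:75707484-75772361) encodes the elongation factor that favours the secreted form of heavy-chain RNA. Its brightest probe set, 1450744_at, gave 5378, 3916 and 8670 units in media and 5881, 8743 and 5113 with anti-IgM. It gave 3167, 3949 and 5013 with CpG, 3728, 5707 and 3944 with PL2-3, and 5420, 6295 and 4575 with both agents. Every stimulated group overlapped media. The changes were 0.17 ± 0.28, −0.51 ± 0.28, −0.37 ± 0.28 and −0.08 ± 0.28 in that order, with limma adjusted p of 0.724, 0.187, 0.376 and 0.846, and no alternative gave a call. The second probe set, 1458569_at, gave 8 to 80 units and was not tested.

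Creb3l2 (chr6:37327255-37442276) encodes a factor that is cleaved from the membrane on its way through the Golgi. It was a dim gene, at or above the array median on 8 of 15 arrays. Its brightest probe set, 1452381_at, gave 910, 642 and 1433 units in media, 409, 733 and 460 with anti-IgM, and 360, 298 and 26 with CpG. It gave 190, 395 and 516 with PL2-3, and 569, 51 and 473 with both agents. All groups except anti-IgM lay wholly below media.

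Creb3l2 fell by 2.01 ± 0.63 on the log2 scale with CpG (4.02-fold, limma adjusted p = 0.0234). Much of that value came from the 26 units of CpG replicate 3, which is below the 75.2 units added: without that array it was −1.15 (adjusted p = 0.177). The call was also lost without media replicate 1 (−2.03, adjusted p = 0.0544) and without media replicate 3 (−1.68, adjusted p = 0.115). The second probe set, 1437396_at, gave −0.62 ± 0.39 with CpG (adjusted p = 0.276). The other 3 changes were −0.78 ± 0.63 with anti-IgM, −1.28 ± 0.63 with PL2-3 and −1.52 ± 0.63 with both (adjusted p of 0.434, 0.151 and 0.0617).

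**Figure D3:**
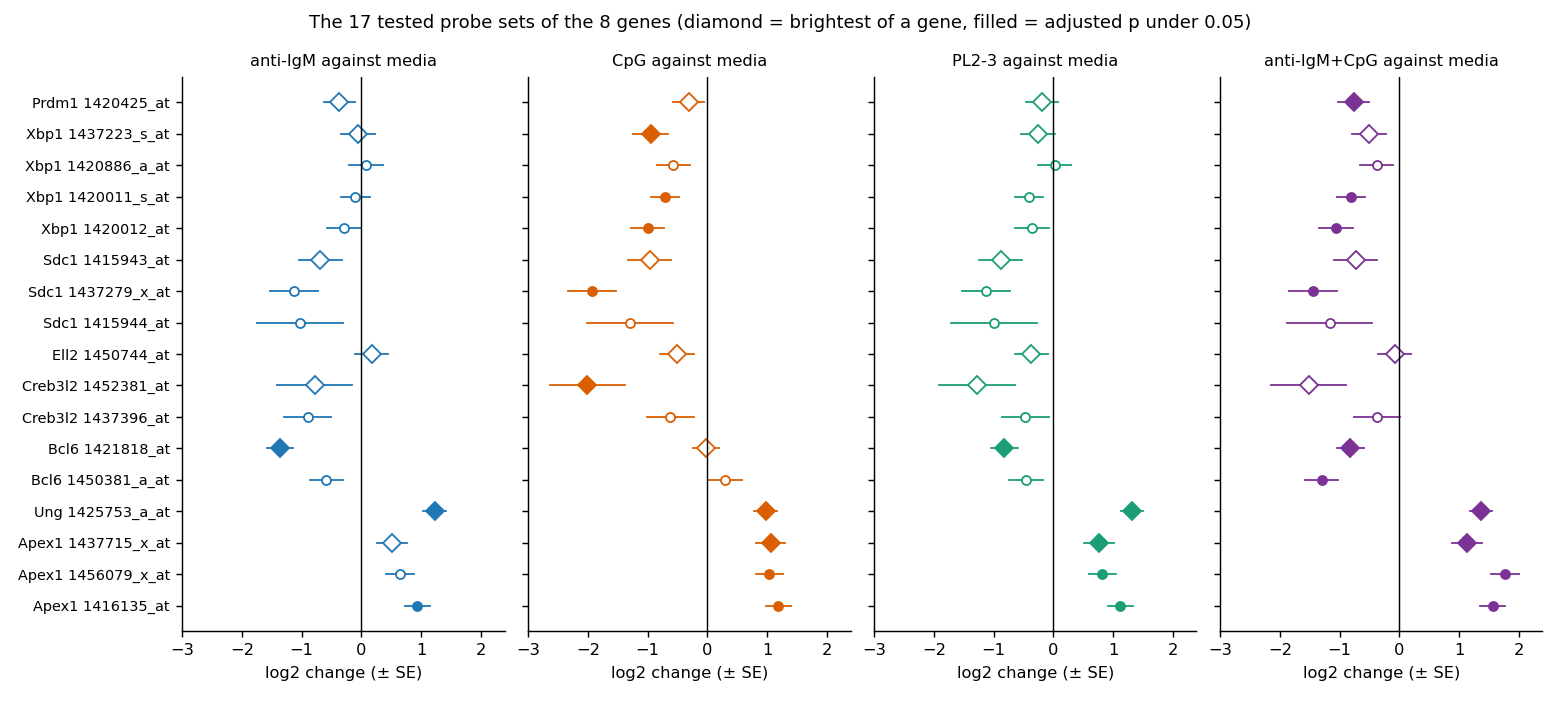
Change from media in log2 units with its SE for the 17 tested probe sets, 1 panel per stimulus; diamonds mark the brightest probe set of a gene and filled symbols an adjusted p under 0.05 over 23059 probe sets. The 3 Apex1 probe sets with CpG range from 1.04 to 1.19, and the 2 Bcl6 probe sets with anti-IgM are at −1.36 and −0.59.

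Counted over the members, 2 of 8 were called with anti-IgM, against 19.5% of all genes tested, 1 higher against 10.1% and 1 lower against 9.32%. With CpG 4 of 8 were called, against 30.1%, 2 higher against 13.1% and 2 lower against 16.9%. With PL2-3 3 of 8 were called, against 25.9%, 2 higher against 12.4% and 1 lower against 13.5%. With both agents 4 of 8 were called, against 41.9%, 2 higher against 17.2% and 2 lower against 24.8%. With 8 genes, these shares are near the background. The count with both agents became 7 without anti-IgM+CpG replicate 1, the added genes being Xbp1 (−0.93), Sdc1 (−1.1, adjusted p = 0.0222) and Creb3l2 (−1.99, adjusted p = 0.0267). Without media replicate 3 the count with CpG became 2, and that with PL2-3 became 1. Without CpG replicate 3 the count with CpG became 2. The shares of all genes called in these refits are not given here, so the counts describe the refits and not the members.

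Between stimuli few members were called. CpG against anti-IgM gave 1 of 8 (Bcl6), against 6.41% of all genes, and both agents against CpG gave 1 of 8 (Bcl6), against 4.53%. Without anti-IgM+CpG replicate 1, or without media replicate 3, the former became 2 with Xbp1. The latter became 0 in 11 of the 15 fits without 1 array. PL2-3 gave 0 of 8 against anti-IgM (0.691% of all genes), against CpG (3.2%) and against both agents (1.84%). Before adjustment, limma's p was under 0.05 for Bcl6 against anti-IgM, for Bcl6 and Xbp1 against CpG, and for Prdm1 against both agents. The shares given are of genes called after adjustment. No share of all genes before adjustment is given here, so the members under 0.05 before adjustment have no background beside them. Both agents against anti-IgM gave 0 of 8 against 9.07%, with 2 members, Bcl6 and Apex1, under 0.05 before adjustment. Non-additivity, that is how far the combined change departs from adding up the single-agent changes, gave 0 of 8 against 2.5%, with 1 member, Ung, under 0.05 before adjustment. Without anti-IgM+CpG replicate 1 or 3, PL2-3 against CpG and both agents against anti-IgM became 1 each, and without replicate 3 non-additivity became 1. For these refits, too, no share of all genes is given here.

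The scaling of the arrays matters for directions. The median change of all genes from media was −0.13, −0.21, −0.1 and −0.29 with anti-IgM, CpG, PL2-3 and both. With arrays shifted to a common median it became 0.14, 0.18, 0.1 and 0.35, and the share of called genes that were higher became 79.3%, 77.7%, 67.2% and 82.3%. Under every scaling run, Ung with all 4 stimuli and Apex1 with CpG, PL2-3 and both were called higher, and Bcl6 with anti-IgM was called lower.

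Some of the listed secretory cell genes were high on the 2 arrays with the highest Xbp1 and Sdc1 signals. Jchain, the joining chain of secreted antibody, gave 86843 units on media replicate 3 and 93702 on anti-IgM+CpG replicate 1. The other 13 arrays gave 8026 to 24719. Derl3, a factor of endoplasmic reticulum degradation, gave 5919 and 4546 units on those arrays and 160 to 1125 on the others. Mzb1, a chaperone of antibody assembly, gave 63284 and 46215 against 5394 to 34658. Edem1, which sorts misfolded glycoproteins, gave 16342 and 17032 against 4808 to 8284.

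These 2 arrays were the highest 2 of 15 for 2 of the 8 members (25%), 5 of 16 tested plasma cell genes (31.2%) and 7 of 29 tested XBP1 target and secretion genes (24.1%), against 3.25% of all 13160 genes. The 2 arrays had been singled out by Xbp1 and Sdc1, which are the 2 members counted, so the share of the members was fixed beforehand. The secretory genes set out above were picked after their values were seen. Other genes of the plasma cell list were lower on media replicate 3 than on media replicates 1 and 2. Irf4 gave 4397 units on replicate 3, against 12169 and 11788 on the other media arrays. In the same order Cxcr4 gave 15717 against 25285 and 29730, Sub1 29882 against 41863 and 45782, and Zbtb20 1075 against 2088 and 1920. Of the 16 tested genes of that list, 5 were at their highest on media replicate 3. Media replicate 3 alone was the highest array for 5 of the 8 members, Prdm1, Xbp1, Sdc1, Creb3l2 and Bcl6, and for 19.4% of all genes. Myeloid and erythroid marker sums were highest on the same array, as given above, and their part in the results was not tested.

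**Figure D4:**
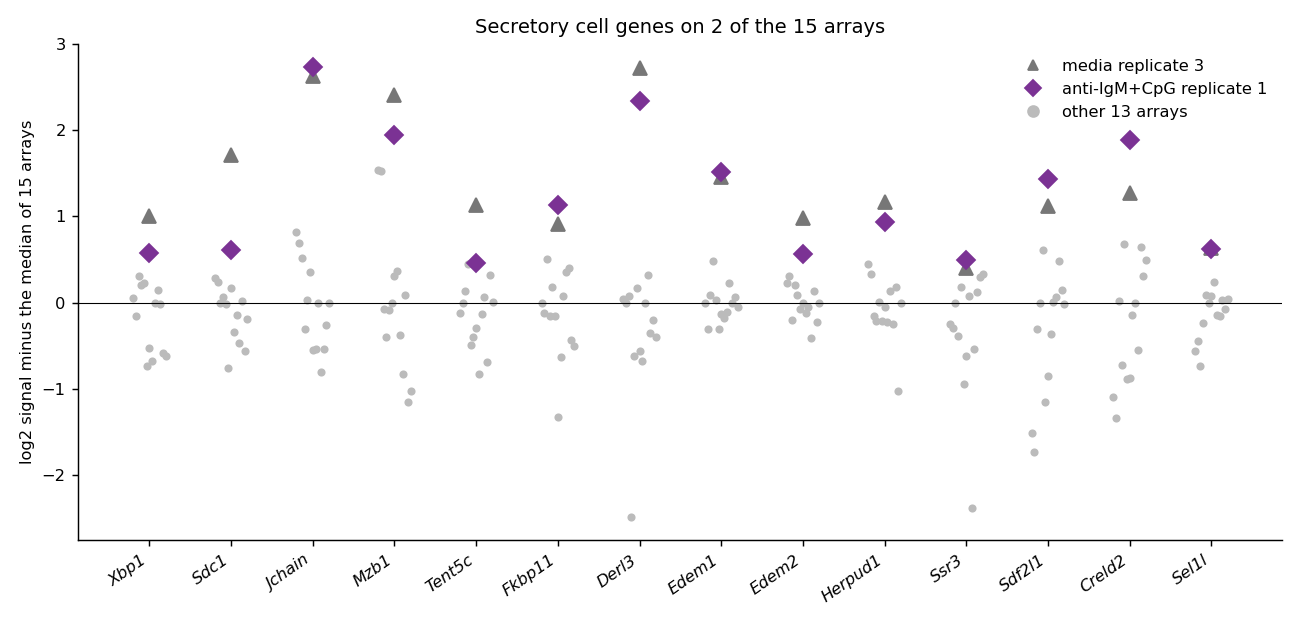
Log2 signal of each gene on each array minus that gene's median over 15 arrays, for Xbp1, Sdc1 and the 12 listed secretory genes for which media replicate 3 (triangles) and anti-IgM+CpG replicate 1 (diamonds) were the highest 2 arrays; small points are the other 13. Jchain, Derl3 and Edem1 stand clear of all other arrays, whereas for Tent5c the diamond, at 27225 units, is close to the highest of the others, at 27012.

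Genes of the same pathways were read from 9 lists, and their members were counted in the same fit. Beside them stand the shares of all genes in the order anti-IgM, CpG, PL2-3 and both: 10.1%, 13.1%, 12.4% and 17.2% were higher and 9.32%, 16.9%, 13.5% and 24.8% lower, with median changes of −0.13, −0.21, −0.1 and −0.29. Values of each list follow that order. These shares are of the main fit, and counts under an alternative have no share of all genes beside them. Of 16 tested plasma cell genes, 1 was higher and 4 lower with anti-IgM, 3 and 8 with CpG, 2 and 6 with PL2-3, and 2 and 7 with both. The shares lower were 25%, 50%, 37.5% and 43.8%, above those of all genes, and the shares higher, 6.25% to 18.8%, were near them; the medians were −0.24, −1, −0.59 and −0.49. Irf4, which drives plasma cell differentiation, gave 12169, 11788 and 4397 units in media and 14980 to 38804 on the stimulated arrays. It rose by 1.9 ± 0.25 with anti-IgM, 1.26 ± 0.25 with CpG, 1.39 ± 0.25 with PL2-3 and 1.56 ± 0.25 with both. For Irf4 non-additivity was called, at −1.6 ± 0.35 (limma adjusted p = 0.0264). Pou2af1, a coactivator of antibody genes, fell with CpG (−2.6 ± 0.17) and with PL2-3 (−2.02 ± 0.17). Itga4, an adhesion receptor subunit, fell with anti-IgM (−1.81 ± 0.22) and with both (−2.42 ± 0.22), and Fut8, a fucosyltransferase, rose by 2.06 ± 0.25 with CpG. The counts lower became 2, 4 and 2 with anti-IgM, CpG and PL2-3 without media replicate 3. Without anti-IgM+CpG replicate 1 the plasma cell count lower with anti-IgM was 6, and with arrays shifted to a common median the counts lower with CpG and both became 4 and 3.

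Of 29 tested XBP1 targets and secretion genes, 5 were higher and 3 lower with anti-IgM, 4 and 3 with CpG, 5 and 3 with PL2-3, and 10 and 4 with both. The shares higher were 17.2%, 13.8%, 17.2% and 34.5% and those lower 10.3%, 10.3%, 10.3% and 13.8%. The shares higher with CpG and PL2-3 and all the shares lower were near or below those of all genes. The medians were 0.17, −0.09, 0.2 and 0.29. Dnajb11, a chaperone of the endoplasmic reticulum, rose by 0.88 ± 0.21 with anti-IgM, and Dnajb9, another, by 1.12 ± 0.26 with CpG. Manf, a secreted stress factor, rose by 0.91 ± 0.25 with anti-IgM, 0.88 ± 0.25 with PL2-3 and 1.23 ± 0.25 with both. Syvn1, a ubiquitin ligase of the same compartment, fell by 1.32 ± 0.24 with CpG. Creld2 rose by 1.27 ± 0.47 with both agents, but was 0.42 (adjusted p = 0.502) with the kit from the actin ratio and 0.59 (adjusted p = 0.222) without anti-IgM+CpG replicate 1. The split turned on scaling: with a common median it was 8 and 1 with CpG and 20 and 0 with both. With quantile normalization it was 2 and 6 with CpG. Without anti-IgM+CpG replicate 1 the counts lower with CpG, PL2-3 and both were 5, 6 and 7. Without media replicate 3 the counts lower with anti-IgM, PL2-3 and both were 1, 1 and 2, and without both of these arrays 8 were higher with anti-IgM.

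Of 16 tested genes that BLIMP-1 represses, 11, 10, 10 and 12 were lower with anti-IgM, CpG, PL2-3 and both, and 2 were higher in each, Myc and Cd83. The shares lower were 68.8%, 62.5%, 62.5% and 75%, and the median changes −1.02, −1.12, −1.18 and −1.73. Prdm1 itself was not called higher with any stimulus, with changes of −0.37, −0.31, −0.19 and −0.76 in the same order. Cd22, an inhibitory coreceptor, fell with anti-IgM (−2.21 ± 0.35) and with PL2-3 (−2.61 ± 0.35). Cd79b, a signalling chain of the antigen receptor, fell with anti-IgM (−2.28 ± 0.37) and with both (−3.63 ± 0.37). Ets1, a factor that restrains plasma cell formation, fell with CpG (−2.42 ± 0.35), with PL2-3 (−2.94 ± 0.35) and with both (−3.93 ± 0.35). Id3, an inhibitor of E proteins, fell by 2.54 ± 0.33 with CpG. Myc, the growth regulator, rose by 2.1 to 2.25 in the 4 groups. Pax5, the factor of B cell identity, fell with anti-IgM (−0.75 ± 0.24, adjusted p = 0.0369) and both (−0.87 ± 0.24, adjusted p = 0.00845), and was −0.24 ± 0.24 with CpG and −0.54 ± 0.24 with PL2-3. Both Pax5 calls were lost with quantile normalization (−0.54 and −0.28) and with a common median (−0.47 and −0.21), and the first also without media replicate 3 (−0.77, adjusted p = 0.0861). Without that array Cd83 was 0.43 with anti-IgM and 0.35 with PL2-3, neither called. With arrays shifted to a common median the counts lower were 6, 7, 8 and 9. Several of these genes also mark B cells as such; of 7 tested B cell markers 5, 4, 4 and 5 were lower. T cell markers, 9 tested, had 4, 5, 2 and 5 lower, myeloid, 14 tested, 5, 5, 4 and 11, NK, 8 tested, 1, 2, 2 and 3, and erythroid, 4 tested, 1, 3, 4 and 3, with none higher; the part of other cells in the results was not tested.

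Of 15 tested genes that BCL6 represses, 7, 10, 7 and 9 were higher and 1, 0, 1 and 1 lower. The shares higher were 46.7%, 66.7%, 46.7% and 60%, and the medians 0.54, 1.24, 0.74 and 0.9. With CpG, where Bcl6 itself was not called, the count higher was 10. Ccl3, a chemokine, rose by 2.52 ± 0.31, 2.93 ± 0.31, 3.34 ± 0.31 and 3.61 ± 0.31 in the same order. Batf, a factor needed for class switching, rose by 2.79 ± 0.24 with CpG, 2.09 ± 0.24 with PL2-3 and 2.9 ± 0.24 with both. Bcl2, which protects from cell death, fell by 1.34 ± 0.24 with anti-IgM. Irf4 is on this list as well. The count higher with anti-IgM was 3 without media replicate 3.

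Of 22 tested germinal centre genes, 2, 5, 3 and 5 were higher and 5, 8, 4 and 6 lower. The shares higher were 9.09%, 22.7%, 13.6% and 22.7% and those lower 22.7%, 36.4%, 18.2% and 27.3%. Those higher with anti-IgM, PL2-3 and both, and those lower with PL2-3 and both, were near the shares of all genes. The medians were −0.42, −0.49, −0.42 and −0.3. Rgs13, a regulator of G protein signals typical of germinal centre cells, rose by 1.36 ± 0.43 with anti-IgM and fell by 2.29 ± 0.43 with CpG. Rgs1, of the same family, rose by 1.51 ± 0.27 with anti-IgM, and Foxo1, a factor of the dark zone, fell by 1.11 ± 0.17. Tnfrsf13b, the receptor TACI, rose by 2.18 ± 0.20 with CpG, 1.07 ± 0.20 with PL2-3 and 1.2 ± 0.20 with both. Ezh2, a histone methyltransferase, rose by 1.17 ± 0.19 with CpG, and Mef2c fell by 1.94 ± 0.23 with both. Bach2, a repressor of Prdm1, gave 16870, 15722 and 9447 units in media. It fell with CpG (−0.57 ± 0.18, adjusted p = 0.0257) and with both (−1.12 ± 0.18, adjusted p = 0.000145), calls lost with a common median (−0.14 and −0.41), and was −0.38 ± 0.18 and −0.45 ± 0.18 with anti-IgM and PL2-3. With a common median the counts lower were 1, 4, 3 and 2. Without media replicate 3 the count lower with CpG was 5 and with both 4, and without anti-IgM+CpG replicate 1 the count lower with PL2-3 was 6.

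Of 30 tested genes for uracil, abasic site and mismatch repair other than Ung and Apex1, 2, 4, 3 and 5 were higher and 3, 4, 5 and 4 lower. The shares were 6.67%, 13.3%, 10% and 16.7% higher and 10%, 13.3%, 16.7% and 13.3% lower, near or below those of all genes, and the medians −0.27, −0.22, −0.25 and −0.3. Pold2, a subunit of DNA polymerase delta, rose by 1.18 ± 0.12, 1.52 ± 0.12, 1.47 ± 0.12 and 1.81 ± 0.12. Neil1, a glycosylase for oxidized bases, fell in all 4 groups, at −2.27 ± 0.36, −2.9 ± 0.36, −2.64 ± 0.36 and −2.61 ± 0.36. Parp1, a sensor of DNA breaks, fell by 2.06 ± 0.24 with both. Without media replicate 3 the counts became 2 and 2 in each single-agent group; with a common median 11 were higher and 2 lower with both. Without anti-IgM+CpG replicate 1 the counts lower were 5 with anti-IgM and 7 with both.

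**Figure D5:**
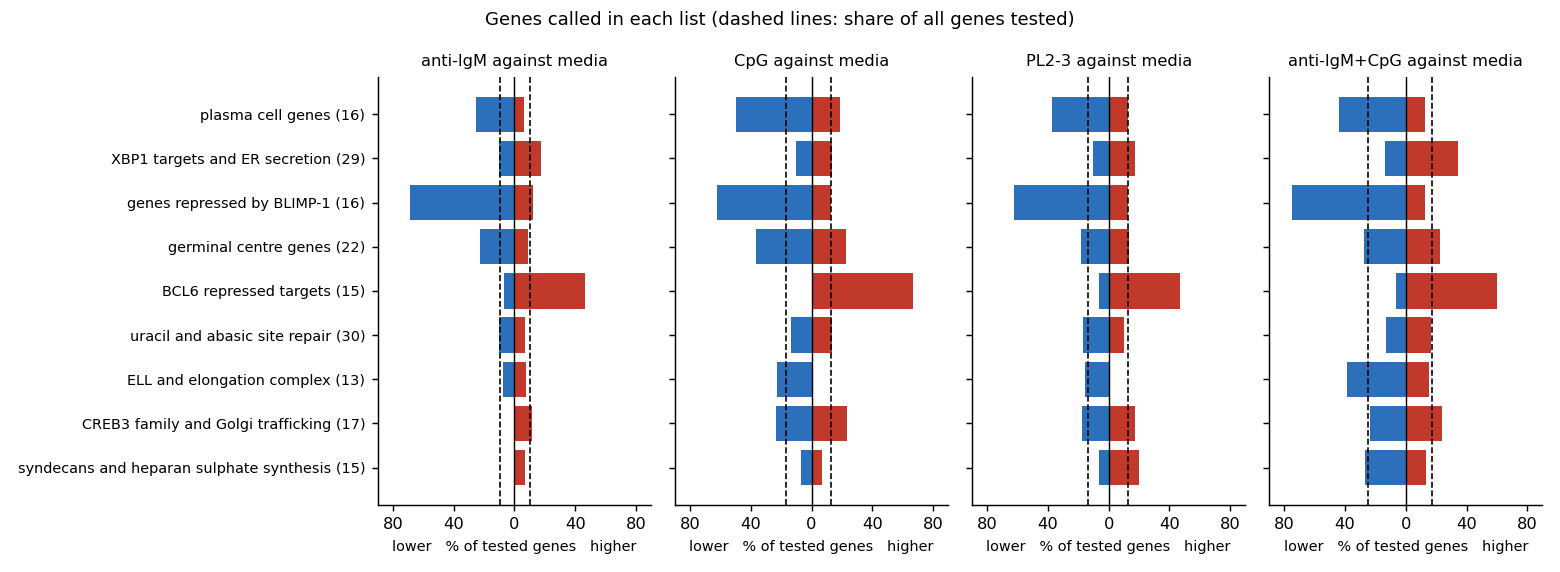
Share of the tested genes of each list that were called higher (red, to the right) or lower (blue, to the left) than media, in percent, with the number tested in brackets; dashed lines give the share of all 13160 genes. Genes repressed by BLIMP-1 extend to the left in all 4 panels, 10 to 12 of 16, or 6 to 9 with arrays shifted to a common median, and BCL6 targets to the right. Prdm1 itself was not called higher with any stimulus.

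Of 13 tested genes of ELL and the elongation complex, 1, 0, 0 and 2 were higher and 1, 3, 2 and 5 lower, which is 0% to 15.4% higher and 7.69% to 38.5% lower, with medians of −0.06, −0.08, −0.18 and −0.44. Aff1, a scaffold of that complex, fell in all 4 groups, at −0.97 ± 0.19 to −0.64 ± 0.19, calls lost with a common median. Of 17 tested CREB3 family and Golgi trafficking genes, 2, 4, 3 and 4 were higher and 0, 4, 3 and 4 lower, which is 11.8% to 23.5% higher and 0% to 23.5% lower, with medians of −0.07, −0.01, −0.04 and 0.15. Sar1a, a coat protein GTPase, rose by 0.98 ± 0.15 with both. Of 15 tested syndecan and heparan sulphate genes, 1, 1, 3 and 2 were higher and 0, 1, 1 and 4 lower, which is 6.67% to 20% higher and 0% to 26.7% lower, with medians of 0.05, −0.2, −0.14 and −0.41. B3galt6, which builds the linker of the heparan sulphate chain, rose by 1.5 ± 0.26 with CpG, and Sdc4, another syndecan, fell by 1.69 ± 0.31 with both. With a common median none of the ELL list was lower with CpG or both and 4 and 5 were higher, and 11 of the CREB3 list were higher with both. Without media replicate 3 the ELL list had 0, 0, 0 and 1 higher and 0, 1, 2 and 2 lower, and the CREB3 list 1, 2, 2 and 2 higher and 0, 1, 1 and 1 lower. The syndecan list then had 0, 1, 0 and 1 higher and 0, 1, 1 and 2 lower.

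The members did not follow a common pattern over the 15 arrays. Pearson's r of log2 values was highest between Xbp1 and Sdc1, at 0.77, and 0.86 after group means were removed; media replicate 3 and anti-IgM+CpG replicate 1 are part of both. It was 0.64 between Ung and Apex1 and 0.21 after group means were removed. Prdm1 had an r of 0.09 with Bcl6, and Bcl6 one of −0.59 with Ung. All arrays share groups, scaling and labelling, so these values are descriptions.

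Genes most like each member over the 15 arrays were named by the 3 highest r. They were Cln6, Enah and Aldh3b1 for Prdm1 (0.92 to 0.93), Ckap4, Tmem161a and Mapre2 for Xbp1 (0.92 to 0.95), and Cdc25b, Nusap1 and Cep55 for Sdc1 (0.93 to 0.94). For Ell2 they were Scpep1, Ncoa4 and Osbpl8 (0.88), and for Creb3l2 Il3ra, Flot1 and Sgsh (0.87 to 0.88). For Bcl6 they were Rasgrp3, Grhpr and Ppp2r5a (0.91), for Ung Qtrt2, Slc39a6 and Mecr (0.95 to 0.97), and for Apex1 Tbca, Pak2 and 2610507B11Rik (0.94).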

How the data were processed

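RNA of 15 AM-14 B cell samples was measured on 1 array each. The deposited value table holds MAS5 signal intensities on a linear scale, per the submitters' processing notes; the MAS5 version is not given in the sources used here. RNA was taken with an RNeasy kit and labelled with an Enzo kit in replicates 1 and 2 and an Ambion kit in replicate 3, per the labels' protocols. Array depth cannot be given as counts; the number of arrays limits precision.

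Of 45037 probe sets besides controls, 34945 had 1 gene symbol, 932 several and 9160 none, and 34741 matched RefSeq. Probe sets with several symbols were not used. Each gene took its probe set with the highest mean. Only genes whose signal reached the median of the array on 3 or more arrays were kept. Values were log2(signal + 75.2), the addition being the 20th percentile of all signals, and were fitted with limma 3.58.1 in R 4.3.3 (lmFit, eBayes with a trend) on group and labelling kit over all 15 arrays, with Benjamini-Hochberg adjustment over genes. A second fit of 23059 probe sets gave the values per probe set. Promoters came from RefSeq for GRCm38.p6. The code was tested on simulated data. Figures were drawn with matplotlib 3.10.9.

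The 8 genes and all gene lists were chosen with earlier results of these data known. From each list, the rule named up to 2 called genes with the largest rise and 2 with the largest fall in each comparison with media, and always Irf4, Pax5 and Bach2; for each member it named the 3 tested genes with the highest Pearson correlation. Some named genes are not reported here, and the secretory genes set out on 2 arrays were chosen after their values were seen. Replicate numbers were checked for pairing by the correlation of deviations from group means. All 18 same-numbered pairs among the 4 groups other than anti-IgM+CpG were above 0.1, at 0.12 to 0.68. Of 36 differently numbered pairs, 8 were above 0.1. Replicate number goes with the labelling kit in those groups, and the part of the kit in these correlations was not tested. None of the 12 same-numbered pairs with the combined arrays was above 0.1. An uncalled change has no direction here. Alternatives covered scaling, pseudocount, filter, labelling, blocking, samples, trend, choice of probe set and each array left out.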

Additional observations from a re-analysis of the deposited data

How the results depend on the processing

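Of 2725 values of single genes under alternatives, 2615 kept their side of the threshold, 56 lost a call, 54 gained one and 0 reversed. Ung against media, Bcl6 with anti-IgM and between CpG and anti-IgM, and Apex1 with CpG and both agents kept their calls in all of them. Of the 8 genes, 2 were called with CpG on Enzo arrays alone, and 1 with PL2-3 without the labelling term. With both agents 2 were called under the common median, without the labelling term and on Enzo arrays alone. PL2-3 against CpG gave 1 with the filter on all 15 arrays, the actin-based kit, the replicate block without combined arrays, no combined arrays and the mean of probe sets, and 2 on the compared groups alone. Both agents against anti-IgM gave 2 under the common median, and 1 on Enzo arrays and with the mean of probe sets. Both agents against CpG gave 0 with quantile normalization, the common median, no pseudocount, no filter, no labelling term, the replicate block, Enzo arrays, compared groups and no trend. CpG against anti-IgM gave 2 with quantile normalization, the replicate block without combined arrays, compared groups and no combined arrays. Non-additivity gave 1 with quantile normalization. The causes were not tested. The share of all genes called in each alternative is not given here, so these counts and those below describe the settings and not the members.

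Leaving out 1 array, or the pair of media replicate 3 and anti-IgM+CpG replicate 1 (chosen after seeing the data), gave 2 to 5 with CpG, 1 to 4 with PL2-3, 3 to 7 with both agents, 0 to 2 for PL2-3 against CpG, 0 to 1 for PL2-3 against both, 0 to 1 for both against anti-IgM, 0 to 1 for both against CpG, 1 to 2 for CpG against anti-IgM and 0 to 1 for non-additivity. With the replicate block, the adjusted p of Sdc1 with CpG was 0.058, and 0.0341 without the combined arrays. The block over all arrays changed the call of Bcl6 between both agents and CpG (adjusted p = 0.0565). Creb3l2 was not tested with the filter on all 15 arrays. Low signal limits what can be seen for Creb3l2, which reached the array median on 8 of 15 arrays.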
